A study of Mus musculus with 16 samples.

Results

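The genes of the vacuolar proton pump and of the lysosome were examined in nuclei of the mouse dentate gyrus (DG) as a set of 32 members, chosen by symbol from the 32285 genes of the deposited tables. Of these, 17 code for the proton pump (V-ATPase) and 15 for lysosomal proteins. The pump genes comprise 6 subunits of the V0 domain, 9 subunits of the V1 domain and 2 accessory proteins. The lysosomal genes comprise 10 enzymes and activators and 5 membrane proteins. All 32 were present in the matrices of all 8 mice and passed the filter on low counts in granule cells (GCs).

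The V-ATPase couples ATP hydrolysis in its cytosolic V1 domain to the transport of protons through its membrane-embedded V0 domain. In neurons it acidifies lysosomes and endosomes, where acid hydrolases degrade proteins, lipids and glycogen, and synaptic vesicles, where the proton gradient drives transmitter loading. Many of these genes share a promoter element built around the letters CACGTG, which is read by the MiT/TFE family of transcription factors to which TFEB belongs.

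Nuclei came from the microdissected, frozen DG of 4 WT mice (genotype VV in the labels) and 4 mice homozygous for V321L in Neuregulin 1 (genotype LL), with 2 females and 2 males of each genotype and no treatment. V321L replaces a valine with a leucine in Nrg1, a membrane-bound growth factor precursor, and is carried by every cell class of the mutant mice, so that no class of a V321L mouse serves as an internal control. The age of these mice is not given in the sources used here. The study's methods give only a range of ages over all of its mice. RNA and accessible chromatin were sequenced from the same nuclei as 1 10x Multiome library pair per mouse, and each mouse is 1 replicate (F1, F2, M1 and M2 in each genotype).

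After filtering, 16360 nuclei remained. GCs numbered 1342 to 2491 in each WT and 808 to 1220 in each V321L mouse and were named from 10 GC markers such as *Prox1*. Summed, these markers ranged from 8324 to 9519 CPM (a level relative to all UMIs of the GCs of the mouse) in WT and from 5804 to 6535 CPM in V321L GCs, and 7 of 10 were lower in V321L mice. The summed GC UMIs (unique RNA molecules) ranged from 1715588 to 5745224 per mouse. RNA quality measures separated the genotypes without overlap. The median mitochondrial share of GC UMIs was 0.0646 to 0.135% in WT and from 0.300 to 1.08% in V321L mice, and cytosolic ribosomal protein genes took 0.0505 to 0.121% and from 0.873 to 1.87% of GC UMIs. The median number of UMIs per GC was 1039.5 to 1927.5 in WT and from 3136.5 to 4659.0 in V321L mice. All 80 ribosomal protein genes tested were higher in V321L GCs, with a median log2 fold change of 3.95. WT M1 stood apart, with the fewest GC UMIs and the highest ribosomal protein share of the WT mice, and from 1 to 12 cell barcodes were shared by any pair of libraries. The part of these differences in the results was not tested except where a value is given.

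RefSeq promoters (250 bases before to 50 bases after an annotated start site, build GRCm38.p6) matched 26 of the 32 members, with 31 promoters in all. They were searched on both strands for the letters CACGTG, for the longer TCACGTG and for the still longer TCACGTGA, each of which contains the one before. CACGTG was found in 9 of the 31 member promoters, from 9 members, and in 7.15% of all 32851 promoters of that length. TCACGTG was found in 8 of the 31, from 8 members, and in 3.77% of all promoters. TCACGTGA was found in 5 of the 31, from 5 members, and in 0.974%. The promoters holding TCACGTGA are shown because they carry the longest match, which is in capitals. They belong to the V-ATPase genes *Atp6v0d1*, *Atp6v0e* and *Atp6v1a* and to the protease genes *Ctsa* and *Ctsd*.
*Atp6v0d1* (chr8:105566015-105566314, minus strand): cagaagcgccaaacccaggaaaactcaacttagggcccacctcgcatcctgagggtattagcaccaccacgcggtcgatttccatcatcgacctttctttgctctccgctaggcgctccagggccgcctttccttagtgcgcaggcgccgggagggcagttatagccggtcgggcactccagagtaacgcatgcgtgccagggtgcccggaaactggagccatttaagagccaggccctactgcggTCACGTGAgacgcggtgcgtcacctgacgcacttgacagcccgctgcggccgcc
*Atp6v0e* (chr17:26676146-26676445, plus strand): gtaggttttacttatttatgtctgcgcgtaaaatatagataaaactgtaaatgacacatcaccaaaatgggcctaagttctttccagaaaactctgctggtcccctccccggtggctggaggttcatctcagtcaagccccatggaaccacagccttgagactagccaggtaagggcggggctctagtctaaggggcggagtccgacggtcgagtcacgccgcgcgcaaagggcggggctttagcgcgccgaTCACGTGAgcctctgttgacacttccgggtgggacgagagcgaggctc
*Atp6v1a* (chr16:44139210-44139509, minus strand): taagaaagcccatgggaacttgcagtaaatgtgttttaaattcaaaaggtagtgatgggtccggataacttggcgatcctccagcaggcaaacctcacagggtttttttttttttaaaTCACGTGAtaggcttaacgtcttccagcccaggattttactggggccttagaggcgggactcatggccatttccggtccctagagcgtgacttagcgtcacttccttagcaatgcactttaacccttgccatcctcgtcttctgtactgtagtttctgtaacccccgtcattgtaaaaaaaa
*Ctsa* (chr2:164833523-164833822, plus strand): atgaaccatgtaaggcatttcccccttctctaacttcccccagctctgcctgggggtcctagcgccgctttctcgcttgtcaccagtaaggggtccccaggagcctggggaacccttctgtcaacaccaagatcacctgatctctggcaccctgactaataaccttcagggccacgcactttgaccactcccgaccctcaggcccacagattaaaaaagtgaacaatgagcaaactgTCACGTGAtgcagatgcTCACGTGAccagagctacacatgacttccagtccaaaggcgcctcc
*Ctsd* (chr7:142387778-142388077, minus strand): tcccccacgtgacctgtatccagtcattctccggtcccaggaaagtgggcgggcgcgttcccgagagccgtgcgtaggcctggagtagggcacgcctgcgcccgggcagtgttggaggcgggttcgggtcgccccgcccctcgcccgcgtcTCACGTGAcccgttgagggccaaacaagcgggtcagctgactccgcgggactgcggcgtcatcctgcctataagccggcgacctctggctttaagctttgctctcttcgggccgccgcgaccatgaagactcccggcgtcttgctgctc
The first letter of the match lay 4 bases before the start site in *Atp6v0d1*, 2 bases after it in *Atp6v0e*, 132 bases before it in *Atp6v1a*, and 99 bases before it in *Ctsd*. *Ctsa* held 2 matches, 13 bases before and 4 bases after the start. For *Atp6v1a* and *Ctsa* the start site used is an annotated one inside the RefSeq span of the gene, downstream of its outermost start. All 5 windows overlapped a region of accessible chromatin found in every library. A match is a description of the letters, and binding was not measured.

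In GCs most genes of the proton pump and of the lysosome were higher in V321L than in WT mice. Of the 17 V-ATPase members, 14 were higher, 1 was lower and 2 did not pass the test, with a median log2 fold change of 1.49. Of the 15 lysosomal members, 11 were higher, 1 was lower and 3 did not pass, with a median of 1.03. The background is wide, since 38.6% of the 12234 genes tested were higher and 31.7% lower, with a median of 0.12 over all genes. The share of members that were higher was 25 of 32 and the share that were lower 2 of 32. Among the higher ones, *Npc2*, *Atp6v1f* and *Cd63* held 29, 34 and 35 UMIs in WT GCs. They passed the filter on low counts through their V321L level and had to differ, so their calls add no support. Tests were edgeR quasi-likelihood tests on UMIs summed over the GCs of each mouse, adjusted over all genes tested and called at 0.05. Levels are CPM after TMM scaling, which sets the libraries against each other on the assumption that most genes do not differ, and a log2 fold change is V321L over WT. The 8 mice did not overlap, with every V321L mouse above every WT mouse, for 22 of 32 members and with every V321L mouse below for 3, against 34.2% and 28.4% of all genes tested.

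**Figure D1:**
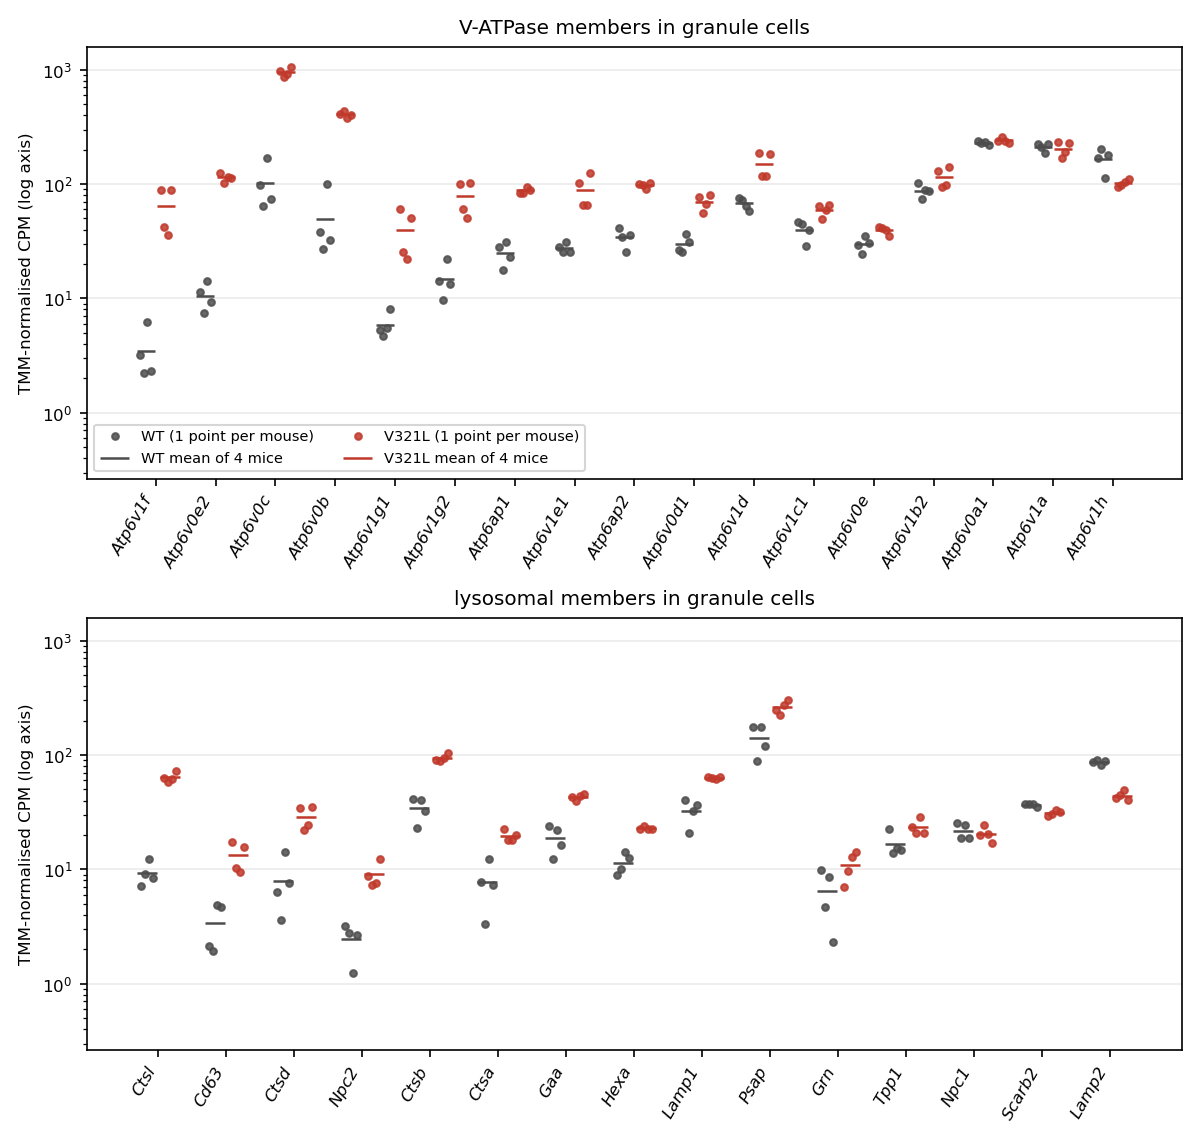
TMM-normalised CPM on a log axis (vertical) of the 17 V-ATPase members (upper panel) and the 15 lysosomal members (lower panel) in GCs, with 1 point per mouse in grey for WT and red for V321L and a bar at the mean of 4 mice. Genes are ordered by log2 fold change from 4.33 (*Atp6v1f*) to -0.72 (*Atp6v1h*) and from 2.82 (*Ctsl*) to -0.98 (*Lamp2*), so that the red points lie above the grey ones at the left and below them at the right.

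The V0 domain carries the proton channel, and 5 of its 6 subunits were higher. *Atp6v0c* (chr17:24163865-24169678), which forms the proteolipid ring, had levels of 97.5, 64.3, 171 and 74.0 CPM in WT mice F1, F2, M1 and M2 and of 982, 866, 926 and 1064 CPM in the V321L mice in the same order. The highest WT mouse, M1, stayed far below the lowest V321L mouse, and the log2 fold change was 3.27 (SE 0.25, adjusted p = 2.78e-07). *Atp6v0b* (chr4:117884330-117887333), the other proteolipid of the ring, had 37.7, 27.0, 100.4 and 32.7 CPM in WT and 414, 438, 376 and 399.7 CPM in V321L mice. WT M1 was again the highest of its group, and the log2 fold change of 3.12 (SE 0.31, adjusted p = 1.53e-06) was 3.60 without that mouse. *Atp6v0e2* (chr6:48537569-48541801), a small membrane subunit, had 11.4, 7.52, 14.2 and 9.33 CPM in WT and 125, 103, 116 and 114 CPM in V321L mice. The groups were far apart, with a log2 fold change of 3.48 (SE 0.16, adjusted p = 1.59e-08). *Atp6v0d1*, which joins the ring to the V1 rotor, had 29.9 ± 4.88 CPM in WT and 69.5 ± 10.8 CPM in V321L mice (mean ± SD, n = 4), which edgeR gave as 1.23 (SE 0.15, adjusted p = 8.93e-06) on the log2 scale. The e1 subunit gene *Atp6v0e* rose by 0.43 on the log2 scale (SE 0.14), with overlapping groups. That call was lost without WT F2 (0.30), with DESeq2 (0.34) and after subtraction of free RNA (0.33). *Atp6v0a1*, the a subunit isoform of neurons, had 229.6 ± 6.77 and 242 ± 13.1 CPM and did not pass the test (log2 fold change 0.08, SE 0.09).

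The V1 domain hydrolyses ATP, and 7 of its 9 subunits were higher and 1 was lower. *Atp6v1f* (chr6:29467783-29470509), part of the central rotor, had the largest change of all 32 members. It held 34 UMIs in WT GCs and passed the filter on low counts through its V321L level. Its levels were 3.2, 2.23, 6.16 and 2.33 CPM in WT and 89.2, 42.3, 35.9 and 88.7 CPM in V321L mice. All V321L mice were above all WT mice, with F1 and M2 above F2 and M1 among the V321L mice, and the log2 fold change was 4.33 (SE 0.40, adjusted p = 1e-06). In V321L free RNA, described below, its level was higher still, at 365 to 533 CPM. *Atp6v1g1* and *Atp6v1g2*, 2 isoforms of the same stator subunit, of which the second is the neuronal one, rose by 2.72 (SE 0.35) and 2.47 (SE 0.27) on the log2 scale. *Atp6v1e1*, which pairs with the G subunits in the stator, rose by 1.70 and the rotor subunit gene *Atp6v1d* by 1.15. Changes were smaller for *Atp6v1c1*, which links the stators to V0, at 0.55, and for *Atp6v1b2*, a subunit of the catalytic hexamer, at 0.40 with overlapping groups. The *Atp6v1b2* call was lost without any 1 of WT F2, M1 and M2 or V321L F1 and M2, at values from 0.29 to 0.35, with DESeq2 (0.30) and in nuclei under 0.5% mitochondrial UMIs (0.18). *Atp6v1a* (chr16:44085402-44139702), the subunit that binds and hydrolyses ATP, had 223, 211, 187 and 223 CPM in WT and 232, 167, 191 and 227 CPM in V321L mice. These values overlapped, and the log2 fold change of -0.05 (SE 0.12, adjusted p = 0.708) by edgeR did not pass the test.

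*Atp6v1h* (chr1:5082978-5163213), a regulatory subunit that controls the coupling of V1 to V0, was the only V-ATPase member that was lower, with 169, 203, 113 and 180.3 CPM in WT and 95.2, 97.1, 104 and 110.5 CPM in V321L mice. WT M1 was close to the highest V321L mouse, the groups did not overlap, and the log2 fold change was -0.72 (SE 0.15, adjusted p = 0.00066) by edgeR. Without the TMM scaling the value was -0.26 (adjusted p = 0.0643) and the call was lost. Both accessory genes rose. *Atp6ap1*, whose product guides assembly of the pump, had 25.1 ± 5.95 and 87.9 ± 5.18 CPM, and *Atp6ap2*, known also as the prorenin receptor, 34.3 ± 6.79 and 97.3 ± 4.92 CPM (mean ± SD, n = 4), with log2 fold changes of 1.84 and 1.49. Summed over the 17 genes, the V-ATPase level lay between 1076 and 1193 CPM in WT and between 2666 and 3204 CPM in V321L mice. The ring genes *Atp6v0c* and *Atp6v0b* weigh most in the V321L sums. Their means were 102 and 49.5 CPM in WT and 960 and 407 CPM in V321L mice. The sum therefore does not describe each subunit, as *Atp6v1a* did not pass the test and *Atp6v1h* was lower.

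Lysosomal enzymes and their activators rose in 9 of 10 cases. *Ctsl* (chr13:64361890-64370772), a cysteine protease, had 7.12, 9.19, 12.3 and 8.33 CPM in WT and 62.6, 57.8, 61.7 and 72.4 CPM in V321L mice. The V321L mice formed a narrow group above all WT mice, with a log2 fold change of 2.82 (SE 0.16, adjusted p = 6.25e-08). *Ctsd* (chr7:142375910-142387827), the main aspartic protease of the lysosome, had 6.4, 3.62, 14.2 and 7.66 CPM in WT and 34.6, 22.0, 24.4 and 34.8 CPM in V321L mice. WT M1 was the highest WT mouse and V321L F2 and M1 the lowest V321L mice, without overlap, at a log2 fold change of 1.98 (SE 0.30, adjusted p = 5.04e-05). *Ctsb* (chr14:63122462-63145923), a second cysteine protease, had 40.9, 22.8, 40.7 and 32.3 CPM in WT and 90.1, 89.3, 94.0 and 104 CPM in V321L mice. Each V321L mouse was above each WT mouse, at 1.49 (SE 0.16, adjusted p = 3.33e-06). *Ctsa* (chr2:164832872-164841032), a carboxypeptidase that also protects beta-galactosidase and neuraminidase, had 7.83, 3.34, 12.3 and 7.33 CPM in WT and 22.5, 18.2, 17.9 and 19.9 CPM in V321L mice. The gap was narrower here, and the log2 fold change was 1.45 (SE 0.27, adjusted p = 0.000263).

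The glycosidase genes *Gaa*, coding for the acid alpha-glucosidase that degrades glycogen, and *Hexa*, coding for an enzyme subunit that takes part in ganglioside breakdown, rose by 1.22 and 1.03 on the log2 scale. *Psap*, the precursor of the saposins that activate sphingolipid hydrolases, had 139.7 ± 43.5 CPM in WT and 263 ± 32.9 CPM in V321L mice and rose by 0.92. *Npc2*, which binds cholesterol in the lysosomal lumen, had 2.47 ± 0.857 and 9.04 ± 2.35 CPM and a log2 fold change of 1.76 (SE 0.30), on 29 WT UMIs. The peptidase gene *Tpp1* rose by 0.49 (SE 0.19) with overlapping groups, a call lost without any 1 of WT F2, M1 and M2 or V321L M1, at values from 0.36 to 0.41. The *Tpp1* call was also lost with DESeq2 (0.40), in nuclei under 0.5% mitochondrial UMIs (0.30) and after each nucleus was thinned to 1000 UMIs (0.61). *Grn*, coding for progranulin, had 6.41 ± 3.51 and 10.9 ± 3.19 CPM, and its log2 fold change of 0.82 (SE 0.36, adjusted p = 0.0549) by edgeR did not pass the test. It passed without WT F1, at 1.14, without V321L F1, at 0.98, with library sizes, at 1.27, and after thinning, at 1.46. It also passed without the filter on low counts, without upper limits on nuclei and with doublets kept, at values from 0.81 to 1.04.

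Membrane proteins of the lysosome did not move as 1 group, since 2 of 5 were higher, 1 was lower and 2 did not pass. *Lamp2* (chrX:38399647-38456460), a heavily glycosylated coat protein needed for autophagosome fusion and chaperone-mediated autophagy, had 86.8, 90.8, 81.9 and 88.3 CPM in WT and 42.1, 44.8, 49.7 and 40.3 CPM in V321L mice. Every V321L mouse was below every WT mouse, with a log2 fold change of -0.98 (SE 0.11, adjusted p = 3.65e-06). Its paralogue *Lamp1* moved the other way, from 32.5 ± 8.58 to 63.3 ± 1.04 CPM (mean ± SD, n = 4), at 0.97 (SE 0.17, adjusted p = 0.000172) by edgeR. *Cd63*, a tetraspanin of late endosomes and exosomes, rose from 3.42 ± 1.60 to 13.2 ± 3.92 CPM, at 2.02 (SE 0.33, adjusted p = 0.000114) by edgeR and on 35 WT UMIs. *Scarb2* (chr5:92441311-92505657), which carries glucocerebrosidase to the lysosome, had 37.0, 37.0, 37.0 and 35 CPM in WT and 29.3, 30.6, 33.0 and 31.8 CPM in V321L mice. The groups did not overlap, yet the log2 fold change of -0.23 (SE 0.12, adjusted p = 0.0956) by edgeR did not pass. *Npc1* (chr18:12189694-12236506), the cholesterol exporter that works with Npc2, had 25.3, 18.7, 24.6 and 18.7 CPM in WT and 19.8, 24.3, 20.3 and 16.8 CPM in V321L mice. These values overlapped, at -0.07 (SE 0.17, adjusted p = 0.718). Summed lysosomal levels ranged from 340.0 to 498 CPM in WT and from 687 to 817 CPM in V321L mice.

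The members that rose most were short genes. In RefSeq, *Atp6v1f*, *Atp6v0b*, *Atp6v0e2* and *Atp6v0c* span 2.73, 3.0, 4.23 and 5.81 kb, whereas *Lamp2*, *Scarb2* and *Atp6v1h* span 56.8, 64.3 and 80.2 kb. Across the 32 members, Spearman's rho between span and log2 fold change was -0.79, against -0.71 across the 11573 tested genes with a span. It was -0.88 for the 17 V-ATPase members and -0.42 for the 15 lysosomal members. These are correlations across genes of the same 8 libraries, which are not independent replicates. Below 10 kb, 79.7% of all genes were higher in V321L GCs with a median of 1.71, and 10 of 11 members were higher with a median of 2.72. Between 10 and 50 kb, 43.7% of all genes were higher with a median of 0.33, and 15 of 16 members with a median of 1.19. In that class 15 of 16 members were above the median of all genes and 11 above their upper quartile. Below 10 kb these counts were 8 and 6 of 11 members, and between 50 and 200 kb 3 and 2 of 5. Between 50 and 200 kb, 59.7% of all genes were lower with a median of -0.50, and of 5 members 2 were lower, 3 did not pass and 0 were higher. No member was longer than 200 kb.

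**Figure D2:**
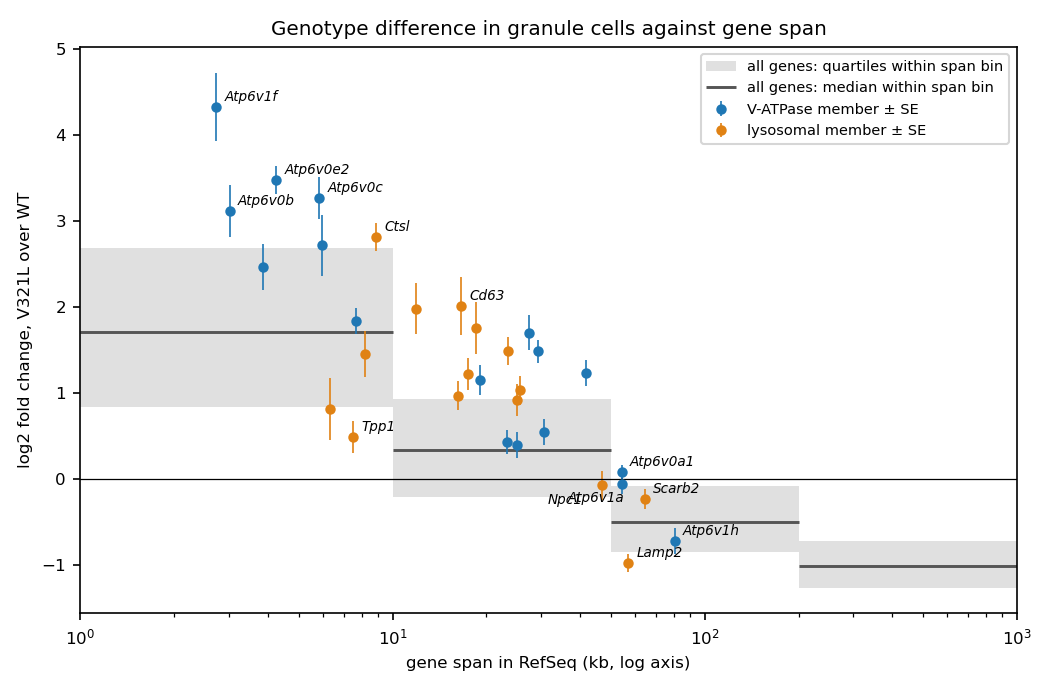
Log2 fold change (V321L over WT, vertical) in GCs against gene span in kb on a log axis for the 17 V-ATPase (blue) and 15 lysosomal (orange) members, with bars for the SE, over the median (line) and quartiles (grey) of all tested genes in 4 span classes. The members fall with span from 4.33 at 2.73 kb to -0.72 at 80.2 kb, as the grey medians do.

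Free RNA in the libraries also differed between the genotypes for most members. Barcodes with 100 or fewer UMIs were summed per mouse as free RNA, in which ribosomal protein genes took 0.809 to 1.45% of UMIs in WT and from 9.87 to 11.3% in V321L libraries. Without overlap between the genotypes, 23 members were higher and 6 lower in V321L free RNA, where 23.7% and 39.4% of the genes tested in GCs were. *Atp6v1f* ranged from 22.0 to 33.6 CPM in WT and from 365 to 533 CPM in V321L free RNA. *Atp6v0c* ranged from 229.8 to 537 CPM and from 1830 to 2499 CPM. *Atp6v1h* was not lower in free RNA, with 61.2 to 105 CPM in WT and from 92.7 to 123 CPM in V321L. Free RNA was estimated from markers of other classes to make up 4.48 to 14.5% of GC UMIs in WT and from 3.24 to 14.2% in V321L mice. After subtraction of that estimate, 13 V-ATPase and 9 lysosomal members were higher in V321L GCs and 1 V-ATPase and 1 lysosomal member was lower, where 39.7% and 28.9% of all genes tested were. For *Atp6v1f* the value after subtraction is not given here. Its level in GCs was highest in V321L F1 and M2 (89.2 and 88.7 CPM). The estimate was 14.2 and 8.16% in these mice and 3.26 and 3.24% in F2 and M1. The part of free RNA in these levels was not tested.

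**Figure D3:**
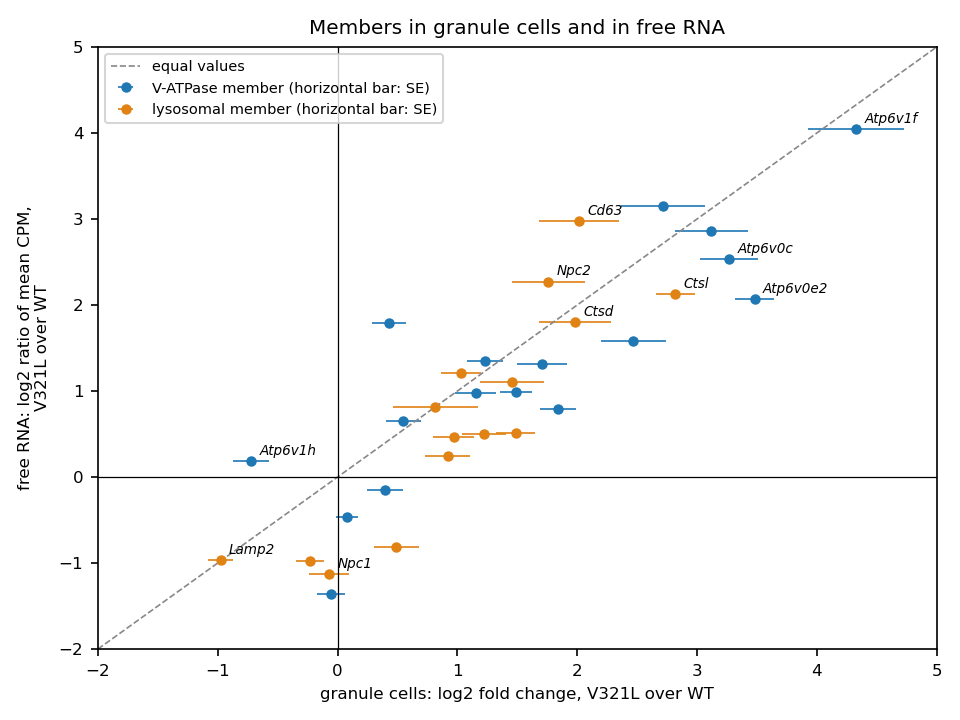
Log2 ratio of mean CPM in free RNA, V321L over WT (vertical), against the log2 fold change in GCs (horizontal, bars for the SE) for the 17 V-ATPase (blue) and 15 lysosomal (orange) members, with a dashed line at equal values. *Atp6v1f* is highest on both axes, at 4.04 and 4.33, *Lamp2* is low on both, at -0.97 and -0.98, and *Atp6v1h* is low in GCs only, at 0.18 and -0.72.

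The members were also compared within each mouse, between its GCs above the median mitochondrial share (high-mitochondrial nuclei) and the others (low-mitochondrial nuclei). Of 32 members, 15 were higher in the high-mitochondrial nuclei, 9 V-ATPase and 6 lysosomal, and 0 were lower, against 9.45% and 6.61% of the 10491 genes tested with edgeR. The largest differences, as log2 ratios of high to low, were 0.86 (SE 0.19) for *Cd63*, 0.64 (SE 0.20) for *Grn* and 0.56 (SE 0.13) for *Ctsd*, which was higher in 8 of 8 mice. The call of *Grn* was lost when any 1 of the V321L mice was left out, at values from 0.58 to 0.60. In WT mice alone the *Grn* value was 0.08 (SE 0.40), and its mean level was 5.36 CPM in low- and 5.85 CPM in high-mitochondrial nuclei of WT mice and 9.07 and 16.7 CPM in those of V321L mice. The call of *Ctsd* was lost after thinning, at 0.57 (SE 0.22). The lowest values were -0.11 for *Atp6v1h*, -0.07 for *Atp6v0a1* and -0.06 for *Npc1*, none of which passed the test. Of the members, 18 had an unadjusted p under 0.05 in either direction, and DESeq2 called 0 lower. The count of higher members was 7 with DESeq2, 5 in WT mice alone and 5 after each nucleus was thinned to 1000 UMIs. As a comparison chosen after the data were seen, the high-mitochondrial GCs of each WT mouse, with a mean mitochondrial share from 0.355 to 0.514%, were set against the low-mitochondrial GCs of each V321L mouse, with 0.164 to 0.660%. There 13 V-ATPase and 11 lysosomal members were higher and 2 and 1 lower in V321L mice, where 33.7% of all genes tested were higher and 29.6% lower, while the ribosomal protein share still ranged from 0.0619 to 0.157% and from 0.696 to 1.63%. *Atp6v1c1* was not called there (0.30), and *Atp6v1a* was lower (-0.34).

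Within each genotype the mice did not rank alike. WT M1 was the highest of the 4 WT mice for 15 of 32 members. V321L F1 and M2, which had median mitochondrial shares of 0.886% and 1.08% against 0.300% and 0.555% in F2 and M1, were both above F2 and M1 for 17 members, among them 8 of the 9 V1 subunits. The share of all genes with this order is not given here. Without WT M1, 13 V-ATPase and 10 lysosomal members were higher. Without V321L F1 these counts were 13 and 12, and without V321L M2 they were 13 and 11. Of the 9 marker lists of other cell classes, summed in GCs, 1 was higher in V321L mice without overlap, that of immature granule neurons, with 65.1 to 87.1 CPM in WT and from 92.2 to 112 CPM in V321L mice. Of the 8 markers in that list 4 were tested, of which 1 was higher and 1 lower. The sum of the 10 microglial markers ranged from 63.2 to 77 CPM in WT and from 41.9 to 70.3 CPM in V321L GCs, and of 4 tested 1 was higher and 3 lower. The 10 astrocyte markers ranged from 1262 to 1370 CPM and from 791 to 941 CPM, and the 9 oligodendrocyte markers from 427 to 499 CPM and from 401 to 542 CPM, in the same order. No list had a marker at 0 in every mouse.

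With library sizes in place of TMM, the median over all genes shifted on the log2 scale by 0.46, from 0.12 to 0.57, and 6664 genes were higher and 2114 lower, against 4726 and 3880. Under that scaling 16 V-ATPase and 12 lysosomal members were higher, while *Lamp2* was lower and *Atp6v1h* was not called. The values of *Atp6v1a*, *Npc1* and *Scarb2* turned from below to above 0, at 0.40, 0.38 and 0.22, each of them below the median of all genes under that scaling. Annotated genes overlap the spans of 12 members, among them *Nfkbil1* at *Atp6v1g2*, *Neurl2* and *Pltp* at *Ctsa*, *Fdft1* at *Ctsb*, *Rmc1* at *Npc1*, *Tmem202* at *Hexa* and *Slc18a1* at *Atp6v1b2*. Whether the counting used strand is not given in the sources used here, so these values may include UMIs of the overlapping gene.

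Outside GCs, members were higher in V321L mice in all 6 other classes that could be tested, neurons and glia alike. In other excitatory neurons 18 of 29 members tested were higher and 2 lower, where 26.3% and 24.5% of all genes tested in that class were. GABAergic neurons had 13 of 19 higher and 0 lower (all genes 20.1% and 15.4%). Astrocytes or radial glia had 18 of 26 higher and 1 lower (all genes 27.1% and 21.7%). Oligodendrocytes, tested in 3 WT mice because WT M1 had 5 of these nuclei, had 9 of 19 higher and 0 lower (all genes 20.4% and 12.9%). Oligodendrocyte precursors had 6 of 7 higher and 0 lower (all genes 14.9% and 10.9%). Without V321L F1 or M1 the oligodendrocyte count of higher members was 5, of 10 and of 8 members that could then be tested. Microglia had 15 of 15 higher and 0 lower (all genes 29% and 24%). Where 0 members were lower by edgeR, 1, 0, 0 and 0 were lower at an unadjusted p under 0.05 in GABAergic neurons, oligodendrocytes, precursors and microglia, and DESeq2 called 0 in each. Only members with enough UMIs in a class were tested, and a member that passed this filter through its level in V321L nuclei alone had to differ, so these are not counts over all 32 members.

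**Figure D4:**
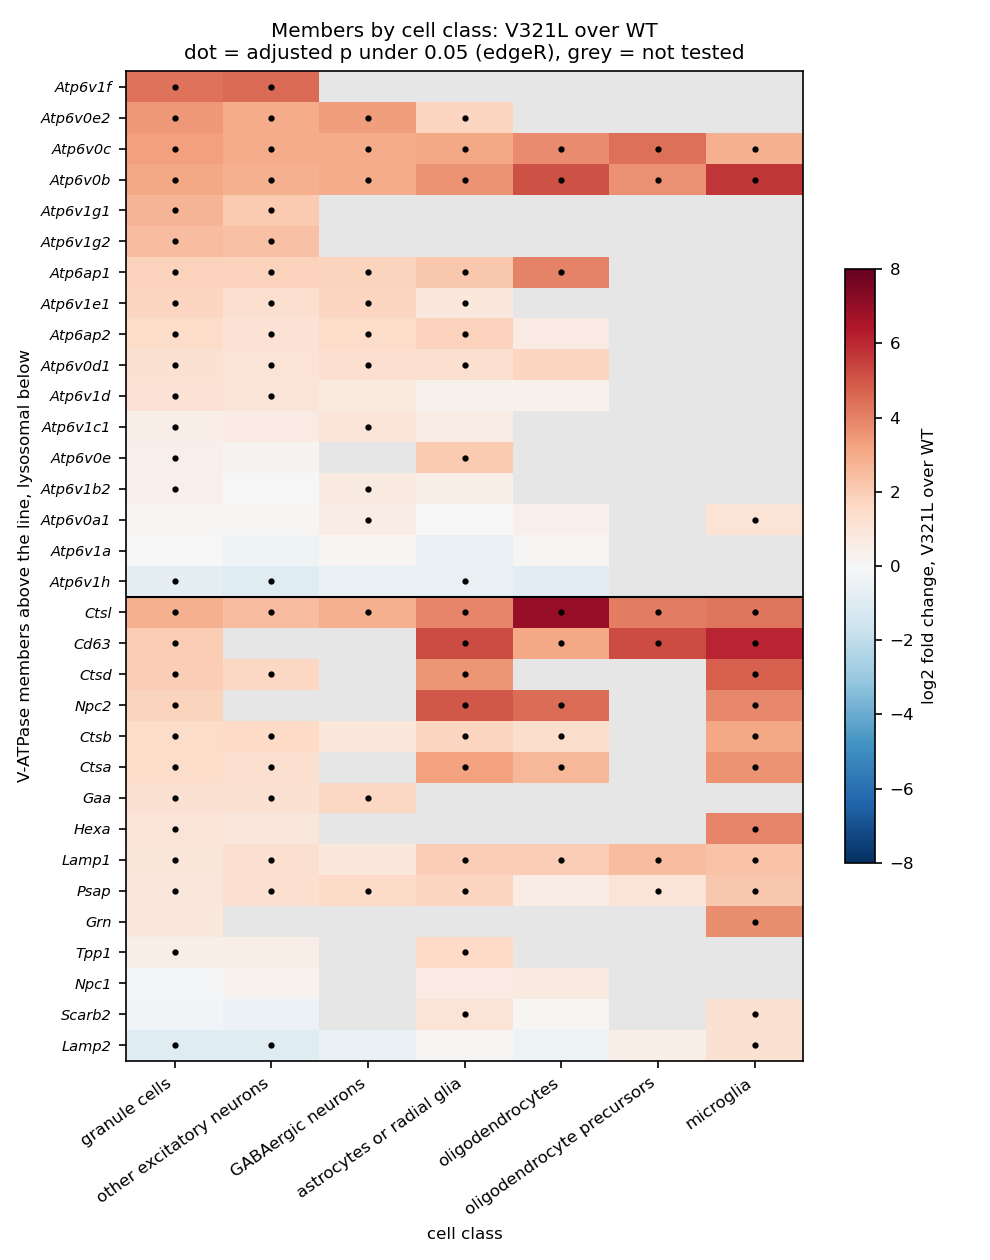
Log2 fold change (colour, V321L over WT) of each member (rows, V-ATPase above the line) in GCs and in 6 other classes (columns), with a dot where edgeR's adjusted p was under 0.05 and grey where the member was not tested. *Atp6v0b*, *Atp6v0c* and *Ctsl* are red with a dot in every column, and *Lamp2* is blue in GCs and other excitatory neurons and red in microglia.

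*Atp6v0b*, *Atp6v0c* and *Ctsl* were called higher in all 6 of these classes, but several of the glial calls rested on few WT UMIs. WT oligodendrocytes held 2, 5 and 0 UMIs of these genes in this order, and WT precursors 8, 6 and 3. WT microglia held 5 of *Atp6v0b* and 9 of *Ctsl*. A member that passed the filter through its V321L level alone had to differ, so such calls are no support for a rise in every class. In other excitatory neurons *Atp6v1f* had 1.77, 2.56, 1.83 and 2.59 CPM in WT mice F1, F2, M1 and M2 and 78.7, 35.7, 32.3 and 77.6 CPM in V321L mice, a log2 fold change of 4.54 (SE 0.48, adjusted p = 0.000101) by edgeR. *Atp6v1f* held 7 UMIs in WT there and passed the filter through its V321L level, so that it too had to differ. Its level in V321L free RNA was 365 to 533 CPM (without TMM scaling), and the part of free RNA here was not tested. *Atp6v0c* had 104, 67.3, 164 and 64.8 CPM in WT and 972, 683, 570.4 and 939 CPM in V321L mice, at 3.0 (SE 0.32, adjusted p = 9.98e-05). As in GCs, *Lamp2* and *Atp6v1h* were the members that were lower there. *Lamp2* had 88.5, 92.0, 82.2 and 97.2 CPM in WT and 50.6, 44.0, 44.8 and 44.3 CPM in V321L mice, at -0.97 (SE 0.15, adjusted p = 0.000441) by edgeR. *Atp6v1h* had 207, 255, 161 and 222 CPM in WT and 109, 121, 110.0 and 101 CPM in V321L mice, at -0.94 (SE 0.16, adjusted p = 0.000932) by edgeR. All V321L mice were below all WT mice for both. In GABAergic neurons *Atp6v0e2* had 0, 0, 32.3 and 22.2 CPM in WT and 143, 121, 125 and 105 CPM in V321L mice, at 3.31 (SE 0.51, adjusted p = 7.96e-05) by edgeR and on 8 UMIs in WT. *Atp6v0b* had 74.1, 49.3, 172 and 48.8 CPM in WT and 559, 601, 569 and 644 CPM in V321L mice, at 2.97 (SE 0.28, adjusted p = 1.43e-06) by edgeR. The genotypes did not overlap for either gene.

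Several members named in glia rested on few WT UMIs. In astrocytes or radial glia *Cd63* had 25.7, 25.8, 17.8 and 20.3 CPM in WT and 814, 1123, 973 and 684 CPM in V321L mice, all V321L mice far above all WT mice, at 5.23 (SE 0.31, adjusted p = 1.24e-07) by edgeR. *Npc2* had 8.58, 0, 0 and 10.1 CPM in WT and 194, 182, 181 and 158 CPM in V321L mice, a ratio of pooled CPM of 35.8 (95% counting interval 11.9 to 176) on 3 WT and 122 V321L UMIs. *Atp6v1h* was lower in these nuclei, with 180.1, 142, 196 and 208 CPM in WT and 123, 119, 102 and 115 CPM in V321L mice, at -0.62 (SE 0.24, adjusted p = 0.0444) by edgeR. That call was lost with DESeq2, with library sizes, with sex in the fit, and without any 1 of WT M2 and the 4 V321L mice, at values from -0.64 to -0.58 for these mice. In oligodendrocytes *Ctsl* had 0 UMIs in the 3 WT mice and 90 in the V321L mice, at least 5.03-fold higher with 3 counts over the WT group as the floor, with 232, 157, 157 and 224 CPM in the V321L mice. *Atp6v0b* in oligodendrocytes had 38.9, 0 and 29.4 CPM in WT F1, F2 and M2 and 998, 751, 609 and 968 CPM in V321L mice, a ratio of 33.2 (95% counting interval 9.14 to 275) on 2 WT and 396 V321L UMIs. In oligodendrocyte precursors *Atp6v0c* had 86.3, 0, 169 and 18.8 CPM in WT and 912, 799.7, 744 and 1335 CPM in V321L mice, at 4.38 (SE 0.49, adjusted p = 3.26e-07) by edgeR. That value rested on 6 WT UMIs. *Cd63* in precursors had 0, 0, 0 and 18.8 CPM in WT and 235, 490.1, 372 and 334 CPM in V321L mice, a ratio of pooled CPM of 45.9 (95% counting interval 8.03 to 1836) on 1 WT and 86 V321L UMIs. In microglia *Atp6v0b* had 0, 28.3, 52.6 and 22.2 CPM in WT and 1282, 1885, 1428 and 1299 CPM in V321L mice, at 5.74 (SE 0.47, adjusted p = 5.79e-05) by edgeR and on 5 WT UMIs. In the same nuclei *Cd63* had 0, 0, 26.3 and 0 CPM in WT and 545, 534, 661 and 325 CPM in V321L mice, a ratio of 92.0 (95% counting interval 16.1 to 3672) on 1 WT and 92 V321L UMIs. These intervals cover counting error only. Without TMM scaling, pooled *Cd63* was 221 CPM in V321L precursors and 296 CPM in V321L microglia, against 181 to 235 CPM in V321L free RNA. Pooled *Ctsl* in V321L oligodendrocytes was 135 CPM against 159 to 216 CPM, and *Atp6v0b* 593 CPM against 367 to 527 CPM, in the same order. The precursor level of *Cd63* and the oligodendrocyte level of *Ctsl* were within or below the range in free RNA. *Atp6v0c* ranged from 1830 to 2499 CPM in V321L free RNA, above its TMM-scaled level in the precursors of every V321L mouse. The share of free RNA was estimated in GCs only, and its part in the glial ratios was not tested. With *Ctsl* at its bound, the median log2 fold change of the 19 members tested in oligodendrocytes was 1.43, as with its fitted value.

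The genotype difference itself was compared between GCs and each other class in 1 fit with mouse as a term. In this joint fit the libraries of both classes were scaled together, so its values are not the plain subtraction of the log2 fold changes given for each class. The median over members of the joint value minus the subtraction was -0.45 in microglia and -0.19 in astrocytes or radial glia. A larger difference here means a more positive log2 value (V321L over WT) than in GCs, not one further from 0. In microglia 6 of 15 members had a larger difference than in GCs and 0 a smaller one, where 8% of all genes differed in either direction. The shares of all genes in this paragraph cover every gene of the joint fit, 11004 for microglia. Members were counted only if they also passed the filter in the class alone, as 1561 genes did in microglia. The shares of members and of all genes are therefore not of like sets of genes. The 6 members in microglia include *Cd63*, *Atp6v0b*, *Hexa* and *Grn*, with 1, 5, 8 and 11 WT UMIs. A member that passed the filter in microglia through its V321L level had to differ between the genotypes there. Astrocytes or radial glia had 6 larger and 2 smaller of 26 (all genes 8.15%), and precursors 1 larger of 7 (all genes 2.78%). *Lamp2* was the 1 in precursors and among the 6 in astrocytes or radial glia. Its log2 fold change was 0.54 and 0.10 in these classes, called in neither, against -0.98 in GCs. The fall seen in GCs was thus not found there. In other excitatory neurons, GABAergic neurons and oligodendrocytes 0 of 29, 0 of 19 and 0 of 19 members differed from GCs by edgeR and by DESeq2 (all genes 0.312%, 0.783% and 1.24%), with 1, 3 and 3 at an unadjusted p under 0.05. Estimates in oligodendrocytes ranged from -0.68 (SE 0.62) for *Atp6v1d* to 7.81 (SE 4.01) for *Ctsl*, which had 0 WT UMIs. The SE there was at least 0.36 (*Lamp2*), so a difference from GCs could go uncalled. Counts of members that differed depended on single mice. For astrocytes or radial glia the count of 8 was 4 without WT M1 or V321L F2, 5 without WT F2, WT M2 or V321L M1 and 5 with DESeq2. For precursors it was 0 without any mouse but WT M2, and for oligodendrocytes 2 without WT F1 and 1 without WT F2 or M2.

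The 6 differences with the smallest adjusted p belonged to 5 lysosomal genes and 1 pump gene. In microglia *Ctsd* had 239.6, 113, 131 and 66.7 CPM in WT and 4264, 2968, 5289 and 2923 CPM in V321L mice. Its log2 fold change was 4.79 there and 1.98 in GCs, and the genotype difference was larger in microglia by 2.31 in the joint fit (SE 0.50, adjusted p = 0.000619, edgeR). *Grn* had 65.3, 14.1, 105 and 66.7 CPM in WT and 994, 416, 1243 and 557 CPM in V321L microglia, and its joint-fit difference was 2.43 (SE 0.57, adjusted p = 0.00152). *Hexa* had 43.6, 14.1, 78.9 and 44.5 CPM in WT and 866, 579, 767 and 418 CPM in V321L microglia, with a joint-fit difference of 2.45 (SE 0.58, adjusted p = 0.00163). For all 3 genes every V321L mouse was above every WT mouse in microglia. WT microglia held 27, 11 and 8 UMIs of *Ctsd*, *Grn* and *Hexa*. These genes passed the filter there through their V321L level, so a difference between the genotypes in microglia was built in. *Lamp2*, which was lower in V321L GCs, was higher in V321L microglia, with 261, 255, 184 and 222 CPM in WT and 577, 534, 608 and 487 CPM in V321L mice, at 1.23 (SE 0.23, adjusted p = 0.00195) by edgeR. The joint fit gave its difference between microglia and GCs as 1.71 (SE 0.37, adjusted p = 0.000651), and plain subtraction of both values gives 2.20. In astrocytes or radial glia the joint-fit difference from GCs was 3.06 (SE 0.54, adjusted p = 6.75e-05) for *Cd63* and 1.44 (SE 0.34, adjusted p = 0.0028) for *Atp6v0e*, which had 85.8, 55.9, 71.4 and 70.9 CPM in WT and 350.1, 428, 249 and 129.6 CPM in V321L mice. The *Atp6v0e* value was 1.08 and no longer passed without V321L F2. In V321L mice *Cd63* ranged from 684 to 1123 CPM in astrocytes or radial glia, from 9.57 to 17.4 CPM in GCs and from 181 to 235 CPM in free RNA (without TMM scaling).

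Levels across classes were described in WT mice, as CPM of the UMIs pooled over the mice of a class. The highest class, among those with more than 3 UMIs of the gene, was oligodendrocytes for 10 members, microglia for 9, astrocytes or radial glia for 6, GABAergic neurons for 5, and oligodendrocyte precursors and other excitatory neurons for 1 each. It was GCs for none of the 32. The highest class held fewer than 10 UMIs for 11 members, and for 6 members the counting interval of the ratio between highest and lowest class included 1. *Ctsd* had 86.8 CPM in microglia and 5.81 CPM in GCs, a ratio of 14.9 (95% counting interval 9.26 to 23.4). Over mice these levels were 88.1 ± 48.4 CPM in microglia, 24.5 ± 29.2 in oligodendrocyte precursors (on 3 UMIs), 19.6 ± 7.83 in astrocytes or radial glia, 15.1 ± 10.1 in GABAergic neurons, 9.66 ± 5.64 in other excitatory neurons and 7.05 ± 4.53 in GCs (mean ± SD, n = 4), and neighbours below microglia in this order differed by less than their spread. In WT oligodendrocytes *Ctsd* had 0 of 112068 UMIs, which allows up to 26.8 CPM. *Grn* had 35.7 CPM in oligodendrocytes, on 4 UMIs, and 35.4 CPM in microglia, against 1.60 CPM in other excitatory neurons, a ratio of 22.3 (95% counting interval 4.62 to 93.9) for the first and last. *Cd63* had 35.7 CPM in oligodendrocytes, also on 4 UMIs, 19.3 CPM in astrocytes or radial glia, and 0.802 CPM in other excitatory neurons on 3 UMIs, a ratio of 44.5 (95% counting interval 7.53 to 304) between the first and last.

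Accessibility at the start sites of the members was tested in GCs of the same mice. All 32 members had an accessible region within 1 kb of a start site in every library, 36 regions in all, and 0 of these passed edgeR's test for genotype in GCs (all 12479 start-site regions 0%). DESeq2 called 0 member regions. At an unadjusted p under 0.05 there were 2 member regions and 1142 regions in all. The log2 fold changes of the member regions ranged from -0.34 to 0.18, and their 95% intervals reached from -0.63 to 0.55, so that a change of 1 in either direction on the log2 scale was outside the interval of all 36. The region with the smallest p, at the shared start sites of *Atp6v1a* and *Naa50* (chr16:44139019-44139947), holds the *Atp6v1a* promoter shown above. It had 137, 194, 184 and 177 CPM in WT and 136, 129, 133 and 153 CPM in V321L mice, a log2 fold change of -0.34 (SE 0.10, adjusted p = 0.282) by edgeR, with overlapping groups. The *Atp6v0c* region (chr17:24169033-24169978) had 142, 133, 134 and 148 CPM in WT and 114, 109, 118 and 123 CPM in V321L mice, at -0.27 (SE 0.09, adjusted p = 0.321) by edgeR. The third, at *Atp6ap2* (chrX:12587196-12588287), had 73.2, 84.9, 84.3 and 82.2 CPM in WT and 65.7, 78.5, 67.8 and 63.4 CPM in V321L mice, at -0.22 (SE 0.11). In these 3 the mean accessibility was lower in V321L mice, whereas the RNA of *Atp6v0c* and *Atp6ap2* was higher.

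At *Atp6v1f*, the member with the largest RNA difference, the region had 90.1 ± 15 CPM in WT and 90.4 ± 10.5 CPM in V321L mice (mean ± SD, n = 4), with a log2 fold change of 0.02 and a 95% interval from -0.20 to 0.24. At *Ctsl* the region had 57.5 ± 3.76 and 57.7 ± 5.94 CPM, and at *Lamp2* 29.2 ± 2.18 and 31.7 ± 2.51 CPM. The difference at *Ctsl* was smaller than the spread between mice, and that at *Lamp2* was close to it. At *Ctsd*, whose promoter is among those shown, the region had 80.5 ± 2.99 and 80.1 ± 6.54 CPM. These counts cover reads at start sites and say nothing of other regulatory regions.

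**Figure D5:**
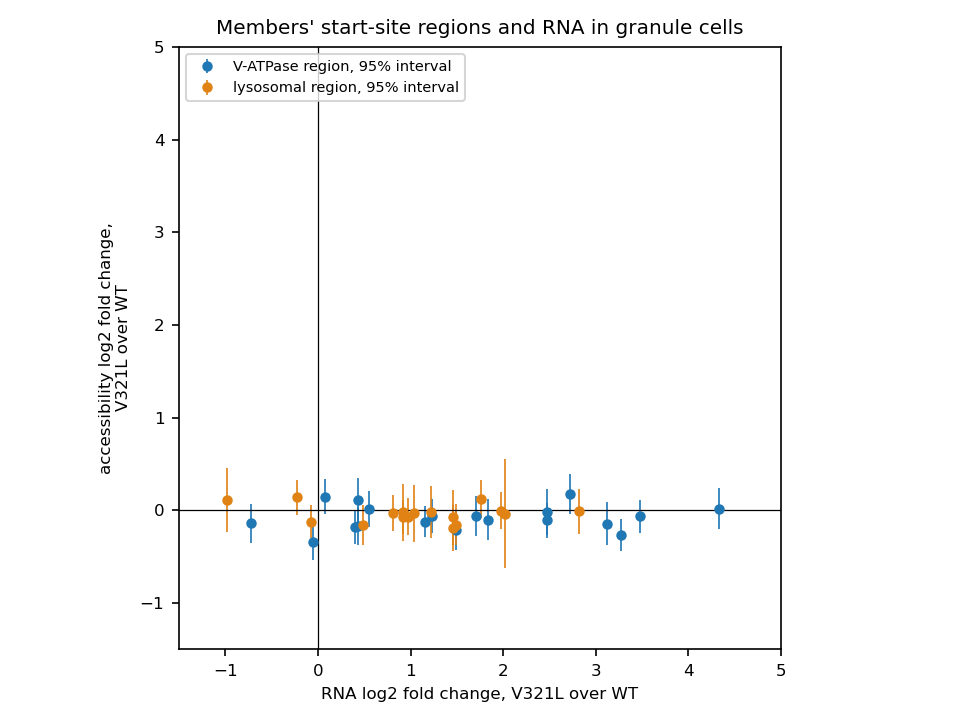
Log2 fold change of start-site accessibility in GCs, V321L over WT (vertical, bars for the 95% interval), against that of the gene's RNA (horizontal) for the 36 regions of the 17 V-ATPase (blue) and 15 lysosomal (orange) members, on equal scales. The points spread from -0.98 to 4.33 along the RNA axis and from -0.34 to 0.18 along the accessibility axis.

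Sex did not pass the test for any of the 32 members in GCs (0 of 32 by edgeR, all genes 0.0458%), and none of them had an unadjusted p under 0.05. The genotype difference did not pass as differing between females and males for any member either (0 of 32, all genes 0%), with 359 of 13101 genes and 1 member, *Atp6v0b*, at an unadjusted p under 0.05. With 2 mice per sex and genotype, the difference for *Atp6v0b* was -1.12 (SE 0.50), and its WT values include the high mouse M1.

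Other genes of the pathway were read from a list of 79, of which 67 were tested in GCs, 40 were higher, 12 lower and 15 did not pass, with a median log2 fold change of 0.72, where 38.6% of all genes tested were higher and 31.7% lower. Among further pump subunits and assembly factors 5 of 9 tested were higher and 3 lower. Among further lysosomal enzymes and transporters these were 26 and 5 of 43, and among genes of sorting and nutrient sensing 9 and 4 of 15. The largest rises were those of *Lamtor2* and *Lamtor4*, whose products are parts of the Ragulator complex that binds the V-ATPase at the lysosome, at 3.98 (SE 0.37, adjusted p = 1.02e-06) and 3.16 (SE 0.34, adjusted p = 3.11e-06) by edgeR, and of *Smpd1*, the acid sphingomyelinase, at 2.34 (SE 0.22, adjusted p = 1.21e-06). *Lamtor2* had 1.78, 1.67, 3.08 and 2.00 CPM in WT and 41.9, 22.1, 20.6 and 45.3 CPM in V321L mice. *Lamtor4* had 3.56, 2.23, 9.86 and 2.00 CPM in WT and 40.8, 30.8, 24.9 and 39.2 CPM in V321L mice. *Smpd1* had 4.62, 5.01, 6.78 and 4.33 CPM in WT and 23.1, 19.6, 30.6 and 30.1 CPM in V321L mice. Every V321L mouse was above every WT mouse for all 3.

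Low values included those of *Wdr7* and *Dmxl2*, which form the rabconnectin complex that promotes assembly of V1 with V0. *Wdr7* had 374, 440.0, 331 and 369.6 CPM in WT and 152, 164, 163 and 154 CPM in V321L mice, at -1.26 (SE 0.10, adjusted p = 4.87e-07) by edgeR, and *Dmxl2* had 462, 497, 386 and 468 CPM in WT and 191, 209.7, 218 and 185 CPM in V321L mice, at -1.17 (SE 0.11, adjusted p = 9.06e-07) by edgeR. For both, every V321L mouse was below every WT mouse. *Wdr7* and *Dmxl2* span 281 and 137 kb, and *Lamtor2*, *Lamtor4* and *Smpd1* span 3.13, 3.91 and 4.03 kb.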

How the data were processed

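Per the file headers, the authors aligned 10x Multiome libraries of 8 mice with Cell Ranger ARC (build mm10 per the submitters' processing notes, which also name Seurat and Signac) and deposited raw UMI counts per gene and ATAC counts per peak for all barcodes, without pooling mice. A point mutation such as V321L cannot be checked from these counts.

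From these counts, nuclei with at least 500 UMIs, 250 genes and 500 ATAC counts, within the upper limits of the study's methods, were kept (17015), and 655 doublets (Scrublet scores) were removed. Nuclei were clustered on 3000 variable genes that held no member or pathway gene (75 components, Leiden resolution 1) into 26 clusters named from marker lists, and 3 clusters (43 nuclei) stayed unnamed. UMIs were summed per mouse and class, and classes with at least 20 nuclei in a mouse entered edgeR 4.0.16 quasi-likelihood tests in R 4.3.3 (TMM, filterByExpr, Benjamini-Hochberg over all genes tested). DESeq2 1.42.0 was an alternative. The tests were checked on simulated counts with 200 changed genes each. The genotype test recovered 71% of them, the test by mitochondrial share 96.5% and the genotype by class test 58.5%. The median absolute fitted log2 changes were 0.98, 0.99 and 1.89, and 9, 14 and 5 unchanged genes were called. A member that did not pass may therefore still differ. Accessibility was tested on ATAC counts in regions found in every library and within 1 kb of a start site. Free RNA was scaled in each mouse by the median over markers of other classes, an estimator chosen after the data were seen.

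Named were the 4 largest rises and 4 largest falls among V-ATPase and among lysosomal members with a mean of at least 10 CPM, the 2 largest significant rises and falls in each other class, 3 regions with the smallest p, at most 6 members in the genotype by class test, 3 rises and 3 falls by mitochondrial share and in the pathway list, and the 3 members with the largest ratio between classes. A gene that this rule names is not reported here. The members and lists were chosen with earlier results of these data known. Alternatives were DESeq2, library sizes, no filter, sex or replicate number as a term, other nucleus filters, thinning, subtraction of free RNA and leaving out each mouse.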

Additional observations from a re-analysis of the deposited data

Results flagged for a closer look

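Among the 64 groups of 4 mice formed by the 32 members and both genotypes in GCs, 4 held a mouse whose gap to the other 3 made up most of the range of the group. These were *Atp6v0b* in WT M1 (100.4 CPM), *Scarb2* in a WT mouse (35 CPM), *Tpp1* in a WT mouse (22.8 CPM) and *Hexa* in a V321L mouse (23.9 CPM). For *Scarb2* and *Hexa* the gap itself was small, with the other mice at 37.0 CPM and at 22.5 to 22.7 CPM. Chance alone would mark about 1 in 20 groups.

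The genotype difference was not the same in GCs and in another class for 15 pairs of a member and a class, by the test of the difference itself. In astrocytes or radial glia the genotype difference (log2, V321L over WT) relative to GCs, as the coefficient of 1 fit that scaled both classes together, was 3.25 for *Npc2*, 3.06 for *Cd63*, 1.44 for *Atp6v0e*, 1.16 for *Scarb2*, 0.93 for *Lamp2* and 0.82 for *Lamp1*, and -2.0 for *Atp6v0e2* and -0.99 for *Atp6v1d*. In microglia it was 4.20 for *Cd63*, 2.45 for *Hexa*, 2.43 for *Grn*, 2.31 for *Ctsd*, 2.21 for *Atp6v0b* and 1.71 for *Lamp2*. In oligodendrocyte precursors it was 1.35 for *Lamp2*. WT mice held 3 UMIs of *Npc2* in astrocytes or radial glia. In microglia they held 1 UMI of *Cd63*, 5 of *Atp6v0b*, 8 of *Hexa* and 11 of *Grn*.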

How the results depend on the processing

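Across all alternatives and left-out mice, 12 to 16 of 17 V-ATPase and 9 to 12 of 15 lysosomal members were higher in V321L GCs. V-ATPase members lower were 0 with library sizes and 2 with WT nuclei of high against V321L nuclei of low mitochondrial share, an alternative chosen after the data were seen, and lysosomal members lower were 2 with a marker gate per nucleus. GABAergic members lower were 1 without the filter on low counts. Astrocyte or radial glia members lower were 0 with DESeq2, with library sizes and with sex as a term, and 2 without the filter. Precursor members higher were 13 without the filter. Members higher in nuclei of high mitochondrial share were 7 with DESeq2, 5 in WT mice only (chosen after the data were seen) and 5 after thinning, and members lower were 1 in V321L mice only. The shares of all genes called in these fits by mitochondrial share are not given here. Members whose genotype difference departed from that in GCs were 5 in astrocytes or radial glia with DESeq2 and 5 without the filter, and 0 in precursors with DESeq2, with library sizes and without the filter. The cause of these changes was not tested.

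With replicate number as a block, 14 V-ATPase members were higher and 1 lower, 11 lysosomal members were higher and 1 lower, and the astrocyte or radial glia count of lower members was 0. The deviations of same-numbered mice correlated at 0.0370 (F1), 0.268 (F2), -0.133 (M1) and 0.0131 (M2), so the numbers do not pair the mice. Over all genes 4622 were higher and 3792 lower with the block.

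Leaving out 1 mouse at a time, members higher and lower were 12 to 14 and 1 to 1 (V-ATPase) and 10 to 12 and 1 to 1 (lysosomal) in GCs, 17 to 21 and 2 to 3 in other excitatory neurons, 9 to 16 and 0 to 1 in GABAergic neurons, 16 to 21 and 0 to 1 in astrocytes or radial glia, 5 to 12 and 0 to 0 in oligodendrocytes, 5 to 8 and 0 to 0 in precursors and 14 to 16 and 0 to 0 in microglia. By mitochondrial share they were 11 to 15 and 0 to 0. Members whose genotype difference departed from that in GCs were 4 to 7 in astrocytes or radial glia, 5 to 9 in microglia, 0 to 1 in precursors, 0 to 2 in oligodendrocytes, 0 to 0 in other excitatory and 0 to 0 in GABAergic neurons, and regions with changed accessibility 0 to 0.

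Of the single values, 13 changed sign under an alternative and 2 with a mouse left out. *Atp6v0a1* was -0.012 with DESeq2. *Atp6v1a* was 0.40 with library sizes, 0.058 without the filter and 0.26 with free RNA subtracted. *Npc1* was 0.38, 0.041 and 0.077 in the same order, 0.013 in nuclei under 0.5% mitochondrial UMIs and 0.0034 with WT nuclei of high against V321L nuclei of low share. With 1 mouse left out the values ran from -0.16 to 0.044 (without V321L F2) for *Atp6v1a* and from -0.18 to 0.016 (without V321L M2) for *Npc1*. *Scarb2* was 0.22 with library sizes and 0.0057 with free RNA subtracted. By mitochondrial share *Atp6v1h* was 0.089 after thinning and *Atp6v0a1* 0.065 in WT mice only. In glia, where WT sums held few UMIs, depth limited which members could be tested, and 0 UMIs in the WT oligodendrocytes allowed up to 26.8 CPM.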
